A study of Mus musculus with 4 samples.

Results

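The genes described here are 7 signalling adaptors and kinases that sit next to antigen and natural killer receptors: Fcer1g, Tyrobp, Hcst, Lat, Lat2, Syk and Zap70. They were picked by symbol from the 31053 genes counted, all 7 were found, and they were chosen by what earlier work on these libraries had shown, above all the genotype differences of Fcer1g. The genotype values of the 7 genes are therefore a description and carry no test. The libraries hold single invariant natural killer T (iNKT) cells from the thymus of untreated mice aged 8 to 9 weeks. One group is C57BL/6 (n = 2 mice) and the other is Hivep3-/- (n = 2 mice), which lack Hivep3, the gene of a large zinc finger protein, and have the same strain label. The labels name no transgene or Cre driver. Each mouse gave 1 library of thymocytes sorted with PBS57-CD1d tetramer, and CD44low and CD44high cells were mixed in equal parts before loading, so the mix of stages was set by the sort.

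ITAMs are short tyrosine motifs in the tails of receptor subunits. When phosphorylated by Src family kinases they dock Zap70 in T cells and natural killer cells, or Syk in B cells and myeloid cells. The docked kinase then phosphorylates a membrane scaffold, Lat in T cells and Lat2 (also called NTAL or LAB) in B cells and mast cells. Fcer1g encodes the FcR gamma chain and Tyrobp encodes DAP12, both ITAM adaptors of activating Fc and natural killer receptors. Hcst encodes DAP10, which partners NKG2D and carries a motif for phosphatidylinositol 3-kinase in place of an ITAM. T cells rely on CD3 chains and on the zeta chain from Cd247 for the same step, and iNKT cells take up natural killer receptors as they mature.

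In GRCm38 (mm10) with GENCODE M21, Fcer1g lies at chr1:171229572-171234365 on the minus strand and Zap70 at chr1:36761798-36782818 on the plus strand. Tyrobp at chr7:30413760-30417585 (plus strand) and Hcst at chr7:30417712-30419854 (minus strand) point at each other with 126 bases between their 3' ends. Lat lies at chr7:126363824-126369570 (minus strand), Lat2 at chr5:134600022-134615025 (minus strand) and Syk at chr13:52583173-52648792 (plus strand). Lat2 overlaps Rfc2, a replication factor gene on the other strand. In cycling-like C57BL/6 cells Rfc2 stood at 117 and 112 CPM and Lat2 at 3.41 and 3.20 CPM. In cycling-like Hivep3-/- cells Rfc2 was higher too, at 127 and 148 CPM, with Lat2 at 64.6 and 47.8 CPM. The part of Rfc2 in the Lat2 values was not tested.

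The start regions of Fcer1g and Hcst are shown because both adaptors rose from stage 0-like to iNKT1-like cells in C57BL/6, while their genotype values in cycling-like cells were far apart for Fcer1g and overlapped for Hcst. RefSeq sequence of GRCm38.p6 was available here for 5 of the 7 genes (Fcer1g, Hcst, Lat, Syk and Zap70), from 250 bases before to 50 after each start. Capitals mark a match, on either strand, to a Runx motif (TGTGGT), a T-box half-site (GGTGTGA), an E-box (CAGGTG) or an Ets motif (CAGGAAG), none of which overlap in these 2 windows. The first window is chr1:171234300-171234599 and the second chr7:30419805-30420104, both on the minus strand and written 5' to 3'.
Fcer1g: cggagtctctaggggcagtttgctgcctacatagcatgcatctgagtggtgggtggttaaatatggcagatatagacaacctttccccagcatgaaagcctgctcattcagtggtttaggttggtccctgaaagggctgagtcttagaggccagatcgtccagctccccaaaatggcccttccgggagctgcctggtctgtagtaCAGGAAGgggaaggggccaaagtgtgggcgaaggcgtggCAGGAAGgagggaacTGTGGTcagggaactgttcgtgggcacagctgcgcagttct
Hcst: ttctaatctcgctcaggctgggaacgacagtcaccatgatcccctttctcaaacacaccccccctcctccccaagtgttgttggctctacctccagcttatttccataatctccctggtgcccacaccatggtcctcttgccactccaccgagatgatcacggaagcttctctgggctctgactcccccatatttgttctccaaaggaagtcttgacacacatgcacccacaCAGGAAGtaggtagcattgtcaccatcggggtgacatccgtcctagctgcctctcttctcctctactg
The Fcer1g window held 2 Ets matches, 45 and 6 bases before the start, and 1 Runx match 9 bases after it. The Hcst window held 1 Ets match, 18 bases before the start. Runx and Ets matches also lay in the Lat window, at -5 and 2 bases from the start, and in a Zap70 window, at -75 and -39. The letters were thus not particular to the 2 genes shown. Of 32851 windows of this length, 13.3% held the Ets letters, 16.8% the Runx letters, 20.2% the E-box letters and 3.98% the T-box half-site. The matches describe letters and say nothing of binding.

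After filtering, 19647 cells were kept (3651 to 7231 per library, with 31381738 to 48291764 UMIs counted per library over all barcodes). A UMI is a molecular tag that counts 1 captured RNA molecule. Cells were clustered without the 7 genes and without the pathway genes named below, and clusters were named from markers. This gave 1281 stage 0-like cells (the earliest, recently selected stage, with 605 of them in a cluster that also carries double positive thymocyte markers), 2345 cycling-like, 2636 iNKT2-like, 614 iNKT17-like and 11738 iNKT1-like cells, the last 3 being the cytokine subsets. A further 1010 cells stayed unnamed and 23 were B cell-like. All markers of a class were highest in it except Gata3, Icos and Plac8 of the iNKT2 list. Libraries shared 26 to 58 cell barcodes, at most 1.34% of the smaller library. Hivep3 itself stood at 38.5 and 36.4 CPM in C57BL/6 and at 101 and 68.0 CPM in Hivep3-/-, and 5' counts over the whole gene do not check a deletion. Xist stood at 324 CPM in C57BL/6 replicate 1 and at 0.0961 to 0.731 CPM in the other libraries, so the C57BL/6 libraries differ in this sex-linked transcript. Levels below are CPM, the UMIs of a gene for each 1000000 UMIs summed over the cells of a class in 1 library, given as replicates 1 and 2.

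In C57BL/6 mice the natural killer type adaptors followed the stages, and the T cell pair Lat and Zap70 varied less. Fcer1g was highest in iNKT1-like cells, at 329 and 351 CPM, and next highest in stage 0-like cells, at 156 and 79.6 CPM. It stood at 22 and 23.0 CPM in cycling-like, 11.9 and 25.7 CPM in iNKT2-like and 14.6 and 7.32 CPM in iNKT17-like cells, and neighbours among these last 3 classes overlapped. Tyrobp was highest in iNKT1-like cells, at 17.9 and 17.5 CPM, against 0 to 7.83 CPM in the other classes. Hcst stood at 866 and 853 CPM in iNKT1-like, 444 and 433 CPM in iNKT17-like, 369 and 431 CPM in iNKT2-like, 186 and 163 CPM in stage 0-like and 165 and 175 CPM in cycling-like cells, and the last 2 classes overlapped. The plot of all 7 genes shows these profiles on 1 scale.

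**Figure D1:**
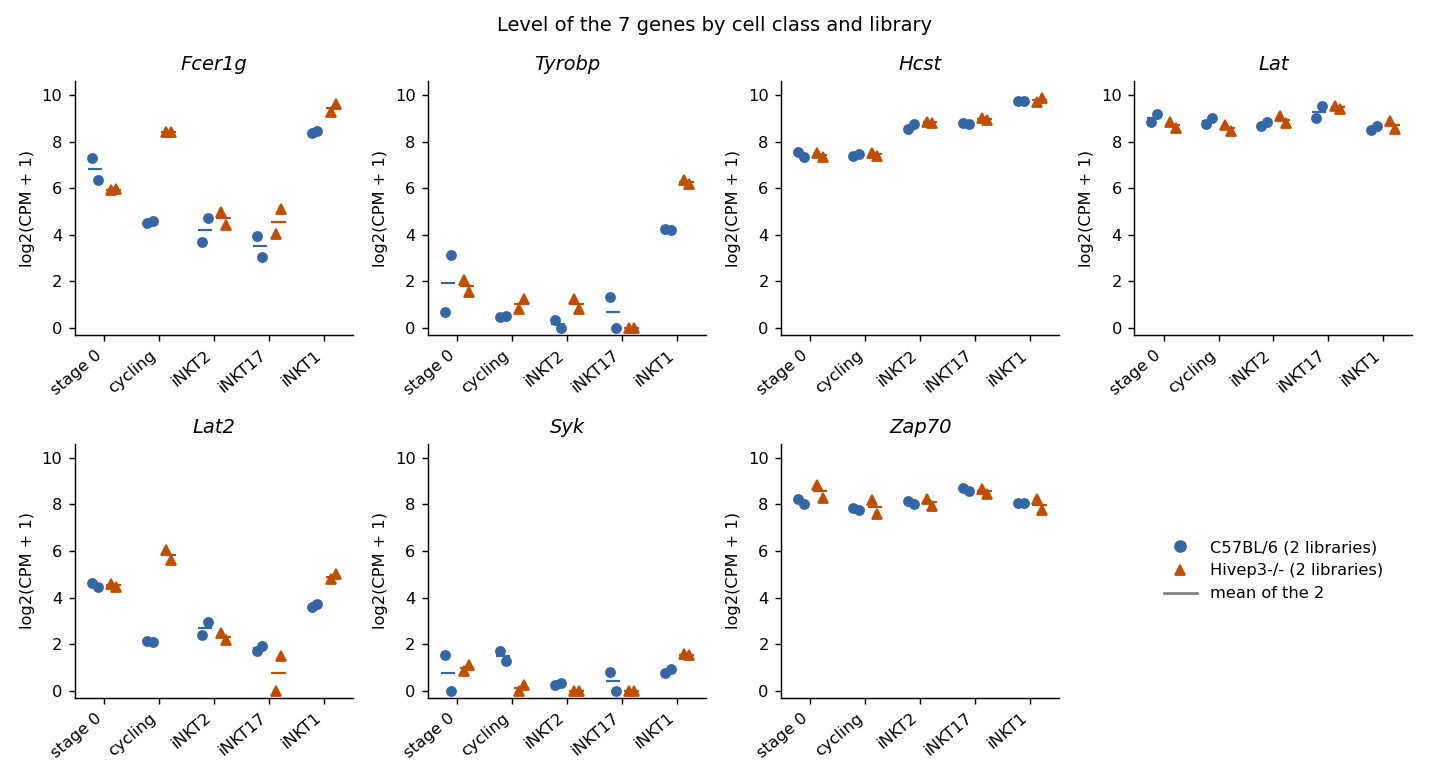
Level of each gene, as log2(CPM + 1), in the 5 cell classes (x axis), with 1 point per library, circles for C57BL/6, triangles for Hivep3-/- and a dash at the mean of each pair. Fcer1g and Lat2 stand apart by genotype in cycling cells, Tyrobp in iNKT1 cells, and Hcst, Lat and Zap70 show no wide gap in any class.

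Differences between classes in C57BL/6 were tested with edgeR over the 20 sums of 4 libraries and 5 classes, with the mouse as a block. The classes still come from other genes of the same cells, so these p-values describe how the 7 genes follow classes drawn on correlated genes. From stage 0-like to iNKT1-like cells, 5 of the 6 genes tested were called, where 49.2% of all genes tested were called. Hcst rose by 2.56 on the log2 scale (SE 0.0959, edgeR adjusted p = 1.05e-16), Tyrobp by 2.85 (SE 0.454, edgeR adjusted p = 1.34e-05), and Fcer1g by 1.70 (SE 0.206, edgeR adjusted p = 1.99e-07). Zap70, the main kinase of the T cell receptor, rose by 0.24 in this fit (SE 0.0872, edgeR adjusted p = 0.0270). Its printed levels did not rise, at 296 and 256 CPM in stage 0-like and 269 and 268 CPM in iNKT1-like cells, so this call depends on the normalization. Lat2 fell by 0.70 (SE 0.262, edgeR adjusted p = 0.0296), and Lat was not called (-0.13, SE 0.0815, edgeR adjusted p = 0.213). In CPM, Lat was lower in iNKT1-like cells, at 359 and 412 against 453 and 578. Tyrobp in stage 0-like cells rests on 1 and 6 UMIs, and its log2 difference ran from 1.48 (without C57BL/6 replicate 1, edgeR adjusted p = 0.0228) to 5.14 over alternatives. With cluster 11 left out of the stage 0-like class, an alternative added after seeing the data, the same 5 genes were called with the same signs and the differences were 2.50 for Hcst, 2.44 for Tyrobp, 1.31 for Fcer1g, 0.45 for Zap70 and -1.02 for Lat2. The calls of Zap70 and Lat2 were lost without either C57BL/6 library (edgeR adjusted p up to 0.234 for Zap70 and 0.496 for Lat2) and with DESeq2 (adjusted p = 0.0624 and 0.0736), and that of Lat2 also at the finer clustering and with likely doublets removed.

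Against iNKT2-like cells, iNKT1-like cells again had 5 of 6 genes called, where 43.6% of all genes were. The log2 difference was 6.30 for Tyrobp (SE 0.417, edgeR adjusted p = 1.58e-11), 4.33 for Fcer1g (SE 0.215, edgeR adjusted p = 4.23e-14), 1.15 for Lat2 (SE 0.218, edgeR adjusted p = 0.000139) and 1.08 for Hcst (SE 0.0779, edgeR adjusted p = 4.30e-11). Tyrobp in iNKT2-like cells rests on 3 and 0 UMIs, so its fold is not a precise size. Lat fell by 0.20 (SE 0.0746, edgeR adjusted p = 0.0363), and Zap70 was not called (-0.05, SE 0.0757, edgeR adjusted p = 0.640). The call of Lat was lost without either C57BL/6 library or without Hivep3-/- replicate 1 (edgeR adjusted p up to 0.140), and that of Lat2 without C57BL/6 replicate 1 (edgeR adjusted p = 0.129).

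Between iNKT17-like and iNKT2-like cells the T cell pair Lat and Zap70 was called and the 3 adaptors were not. Of the 6 genes tested 2 were called, where 17.6% of all genes were. Lat rose by 0.39 (SE 0.0804, edgeR adjusted p = 0.000866), from 403 and 459 CPM to 510 and 741 CPM. Zap70 rose by 0.40 (SE 0.0842, edgeR adjusted p = 0.00107), from 285 and 257 CPM to 411 and 374 CPM. Without C57BL/6 replicate 2 neither was called (edgeR adjusted p = 0.357 for Lat and 0.0870 for Zap70), and Zap70 was not called without replicate 1 either. Fcer1g (-0.68, SE 0.509), Tyrobp (1.83, SE 1.52), Lat2 (-1.15, SE 0.591) and Hcst (0.01, SE 0.0861) had edgeR adjusted p-values from 0.207 to 0.970. Syk did not pass the low-count filter of this fit.

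**Figure D2:**
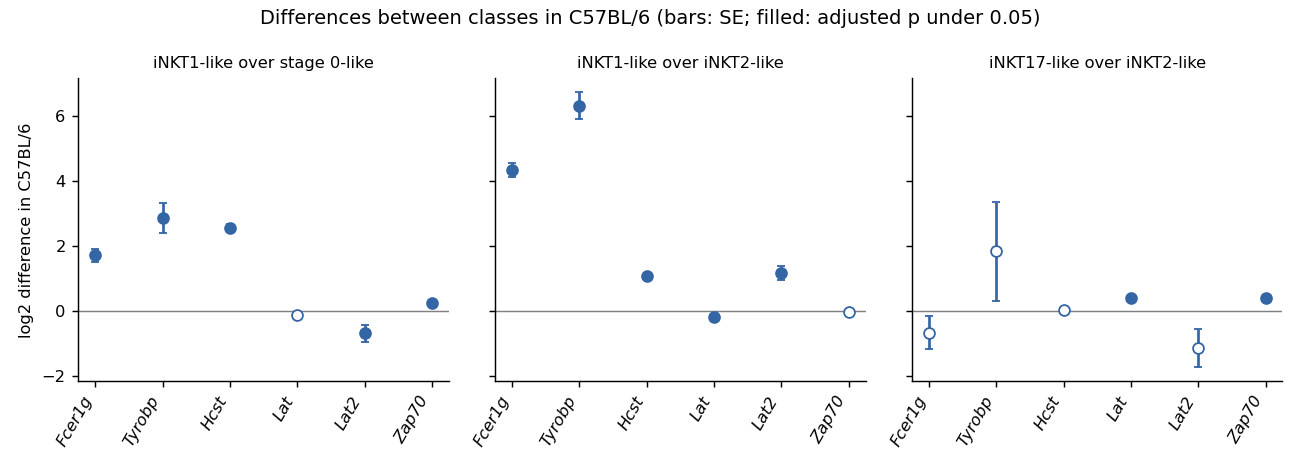
Log2 difference of 6 genes between classes in C57BL/6 (y axis) with bars of 1 SE, in 3 panels for the 3 class pairs, and filled points for genes called at an adjusted p under 0.05. Fcer1g, Tyrobp and Hcst are above 0 in both panels on iNKT1 cells, while Lat and Zap70 stay within 0.41 of 0 in all 3 panels.

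Lat2 and Syk, the scaffold and the kinase of the B cell and mast cell relay, were low in C57BL/6 iNKT cells. Lat2 was highest in stage 0-like cells, at 23.7 and 20.9 CPM, then 11.2 and 12.1 CPM in iNKT1-like, 4.32 and 6.75 CPM in iNKT2-like, 3.41 and 3.20 CPM in cycling-like and 2.30 and 2.74 CPM in iNKT17-like cells, and no neighbours in this order overlapped, though the last class rests on 3 UMIs a library. Syk stood at 0 to 2.23 CPM in the 5 classes, while the 3 to 9 B cell-like cells of each library had 54.5 to 124 CPM from 1 or 2 UMIs. Zap70 and Lat, with 217 to 411 CPM and 359 to 741 CPM, were present in each class.

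By genotype, Fcer1g showed its widest gap in cycling-like cells. It stood at 22 and 23.0 CPM in C57BL/6 (22.5 ± 0.681, SD, n = 2) and at 342 and 339 CPM in Hivep3-/- (340.4 ± 1.71, SD, n = 2), a log2 difference of 3.76 (SE 0.130). The groups are far apart, and Fcer1g in Hivep3-/- cycling-like cells is at the level of C57BL/6 iNKT1-like cells. In iNKT1-like cells it stood at 329 and 351 CPM in C57BL/6 and at 625 and 786 CPM in Hivep3-/-, a log2 difference of 0.98 (SE 0.176) with no overlap. In stage 0-like cells the order was reversed, with 156 and 79.6 CPM in C57BL/6 and 59.3 and 60.9 CPM in Hivep3-/- (-1.14, SE 0.247). That lower value leans on C57BL/6 replicate 1, the library with Xist, and without it the log2 difference was -0.55. The 4 libraries overlapped in iNKT2-like cells (11.9 and 25.7 against 30.6 and 20.5 CPM, 0.41, SE 0.358). In iNKT17-like cells, Hivep3-/- had 15.5 and 33.0 CPM against 14.6 and 7.32 CPM (1.05, SE 0.462), a gap of less than 1 CPM between the nearest libraries. That value rests on 8 to 37 UMIs a library and ran from 0.35 without Hivep3-/- replicate 2 to 1.64 without C57BL/6 replicate 1.

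Lat2 showed the same wide gap in cycling-like cells. It stood at 3.41 and 3.20 CPM in C57BL/6 and at 64.6 and 47.8 CPM in Hivep3-/- (3.90, SE 0.233). In iNKT1-like cells it had 11.2 and 12.1 CPM against 26.5 and 30.8 CPM (1.22, SE 0.178). In stage 0-like cells the libraries overlapped at 23.7 and 20.9 against 22.9 and 20.9 CPM (-0.16, SE 0.291), which differs from Fcer1g. In iNKT2-like cells they overlapped as well, with 4.32 and 6.75 against 4.49 and 3.55 CPM (-0.49, SE 0.394). The adaptor Tyrobp differed in iNKT1-like cells, with 17.9 and 17.5 CPM in C57BL/6 and 80.2 and 71.2 CPM in Hivep3-/- (2.01, SE 0.137). Its counts were too low to be tested elsewhere, with at most 8 UMIs in a library in the other 4 classes.

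Hcst, Lat and Zap70 had no wide gap in any class. For Hcst the 5 log2 differences ran from -0.17 in stage 0-like to 0.12 in iNKT17-like cells, and in iNKT1-like cells it had 866 and 853 CPM against 827 and 928 CPM. For Zap70 they ran from -0.16 in iNKT1-like to 0.34 in stage 0-like cells, where Hivep3-/- had 457 and 309 CPM against 296 and 256 CPM. For Lat they ran from -0.48 in cycling-like to 0.11 in iNKT2-like cells. Lat in cycling-like cells had 437 and 522 CPM in C57BL/6 and 417 and 355 CPM in Hivep3-/- (SE 0.136), close together with no overlap. Syk was testable in iNKT1-like cells, at 0.683 and 0.890 CPM against 1.95 and 1.90 CPM (1.2, SE 0.393), from 9 to 42 UMIs a library. In cycling-like cells Syk had 36 and 10 UMIs in C57BL/6 and 0 and 1 UMIs in Hivep3-/- (2.23 and 1.45 against 0 and 0.195 CPM).

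Called genes among the 7 are counted here only beside the background, since this contrast chose them and nothing is read from the counts. In cycling-like cells 2 of the 5 tested were called (Fcer1g and Lat2), where 2.99% of all genes tested were. In iNKT1-like cells 2 of the 7 tested were called (Tyrobp and Lat2), where 0.806% of all genes were. In stage 0-like, iNKT2-like and iNKT17-like cells 0 of 5, 0 of 5 and 0 of 4 were called, where 0.764%, 0.295% and 0.105% of all genes were. Fcer1g was thus on the uncalled side in stage 0-like and iNKT1-like cells. Among 10 alternatives it was called in 5 for stage 0-like and in 4 for iNKT1-like cells. Lat2 in iNKT1-like cells was not called without either C57BL/6 library, though its log2 difference stayed at 1.18 and 1.27.

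**Figure D3:**
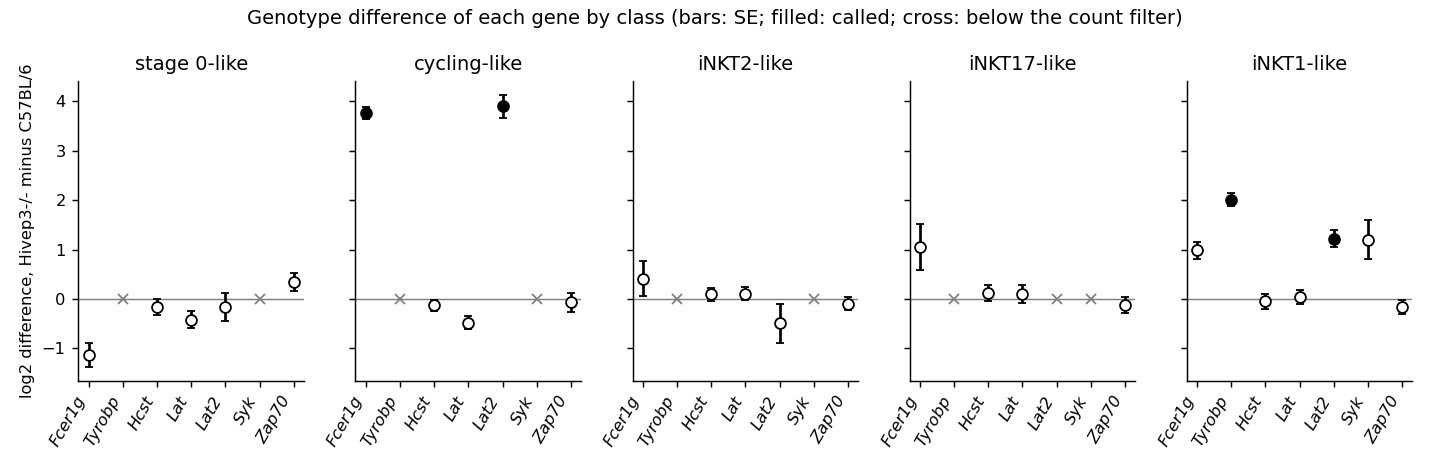
Log2 difference of each gene between genotypes (y axis, Hivep3-/- minus C57BL/6) with bars of 1 SE, in 1 panel for each class. Filled points were called, open points were not, and a cross at 0 marks a gene below the count filter. Fcer1g is below 0 in stage 0-like cells (-1.14) and above 0 in cycling-like (3.76) and iNKT1-like cells (0.98).

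The gap of Fcer1g and Lat2 was present in each of the 3 cycling-like clusters. In cluster 5, led by the replication genes Ung and Mcm3, Fcer1g had 11.7 and 8.66 CPM in C57BL/6 and 342 and 368 CPM in Hivep3-/- (4.94). In cluster 8, led by the mitotic genes Ccnb2 and Cenpa, it had 15.8 and 23.5 CPM against 383 and 363 CPM (4.19). In cluster 12, led by histone genes, the gap was smaller, at 69.2 and 60.3 CPM against 280.0 and 285 CPM (1.98). In C57BL/6 replicate 2, 5 of its 76 cells held 98.7% of the 78 UMIs. Lat2 had log2 differences of 4.49, 3.83 and 2.83 in the same 3 clusters. Lat was lower in both Hivep3-/- libraries in clusters 8 (-0.50) and 12 (-0.62). It was also lower in clusters 7 (-0.43) and 9 (-0.59), described below, and overlapped in every other cluster, cluster 5 (-0.36) included.

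A gap in both genes was also present in an unnamed cluster. Cluster 7 (906 cells, led by Tnni1, Klrb1a and Htra3) had 260.2 and 325 CPM of Fcer1g in C57BL/6 and 810 and 836 CPM in Hivep3-/- (1.44). Lat2 in this cluster had 28.4 and 29.8 CPM against 86.5 and 89.7 CPM (1.53), and Tyrobp had 3.90 and 2.48 CPM against 32.1 and 28.6 CPM (2.96). Cluster 7 held 205 and 37 cells of the C57BL/6 libraries and 281 and 383 cells of the Hivep3-/- libraries. Klhdc2 and Atp1b1, which are among the genes that lead this cluster, also stood higher in Hivep3-/- cycling-like cells, with Klhdc2 at 60.6 and 56.1 against 339 and 350 CPM and Atp1b1 at 53.5 and 55.5 against 181 and 156 CPM. The part of such cells in the cycling-like values was not tested.

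Stage 0-like cells fell into 2 clusters that differed in Fcer1g. Cluster 9, led by Gm43352, Itm2a and Nrgn, had 210 and 94.1 CPM in C57BL/6 and 76.4 and 77.2 CPM in Hivep3-/- (-1.15). Cluster 11 had the lower depth (median 2734 UMIs against 7815.5), Cd24a and Cd8b1 among its leading genes, and its highest marker score for the double positive thymocyte list. Its Fcer1g stood at 0 to 9.32 CPM, from at most 4 UMIs a library. In cluster 9 of C57BL/6 replicate 2, 5 of 73 cells held 90.2% of its 61 UMIs, so that value rests on few cells. In C57BL/6 replicate 1, 55 of 169 cells had a UMI and the top 5 held 28.9%. In the Hivep3-/- libraries 35 of 212 and 36 of 222 cells had one.

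In iNKT1-like cells the 3 genes differed in where the gap lay. Fcer1g was higher in both Hivep3-/- libraries than in both C57BL/6 libraries in clusters 0, 2, 3, 4 and 6, with log2 differences from 0.39 (cluster 3) to 1.02 (cluster 6). Lat2 did the same in these 5 clusters, from 0.50 to 1.66. Tyrobp did so in cluster 3, at 48.7 and 62.5 against 249 and 197 CPM (1.95), and in cluster 4, at 15.8 and 11.3 against 43.6 and 27.1 CPM (1.35). In clusters 0, 2 and 6 the Tyrobp values of the genotypes overlapped, with log2 differences of 0.22, -0.03 and 0.07. Clusters 3 and 14, led by Ccl5 and Gzma, are late iNKT1 cells. Late cells were 12.5% and 11% of the iNKT1-like cells in C57BL/6 and 25.5% and 29.6% in Hivep3-/-. The part of this share in the class values was not tested. Fcer1g in late cells stood at 781 and 1030.5 CPM in C57BL/6 and at 1150 and 1291 CPM in Hivep3-/-, against 266 and 274 CPM and 457 and 584 CPM in the other iNKT1-like cells. Syk, too, was found mostly in late cells, at 3.12 to 7.16 CPM, against 0.180 to 0.675 CPM in the others.

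**Figure D4:**
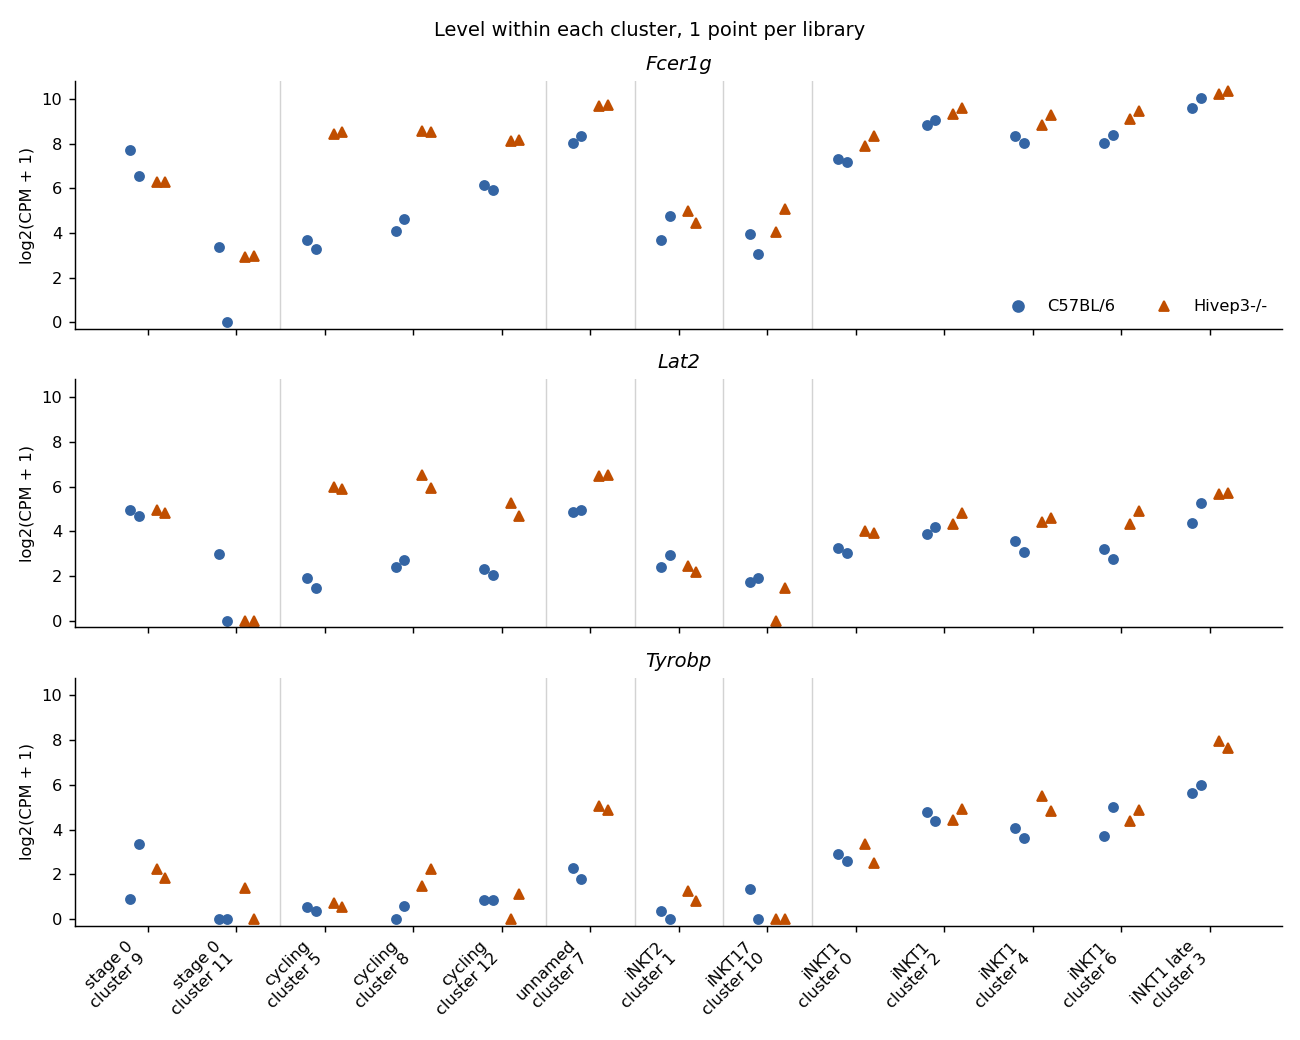
Level of Fcer1g, Lat2 and Tyrobp, as log2(CPM + 1), within 13 clusters grouped by class (x axis), with 1 point per library, circles for C57BL/6 and triangles for Hivep3-/-. Triangles of Fcer1g and Lat2 lie above the circles in cycling clusters 5, 8 and 12, in cluster 7 and in the iNKT1 clusters, and those of Tyrobp stand clearest above them in clusters 3, 4 and 7.

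The share of cells with a UMI was compared after each cell was thinned to 2000 UMIs, which left out 1.78% to 6.94% of the cells of a library and 163 of the 1281 stage 0-like cells. In cycling-like cells (median 13322 UMIs before thinning) 2.95% and 2.25% of C57BL/6 cells and 34.2% and 32.3% of Hivep3-/- cells had Fcer1g (unthinned 7.31%, 6.98%, 49.5% and 51.1%). In iNKT1-like cells (median 4851 UMIs) the shares were 30.6% and 29.8% against 44.9% and 51.7% (unthinned 36.9%, 38.2%, 55.3% and 62.0%). The class with the lowest level served as background, which was iNKT17-like cells with 0.794% to 2.28% (median 7178.5 UMIs), and cluster 11 had 0% to 1.28%. The C57BL/6 cycling-like shares are at or little above this background and are not read as expression. In stage 0-like cells 13.9% and 3.70% of C57BL/6 cells had Fcer1g against 4.36% and 5.04% of Hivep3-/- cells, so on this measure the genotypes overlapped and C57BL/6 replicate 1 alone stood apart (unthinned 16.1%, 9.24%, 9.97% and 9.29%). Tyrobp in late iNKT1-like cells was seen in 5.45% and 10.7% of C57BL/6 cells and 20.3% and 16.2% of Hivep3-/- cells (unthinned 8.69%, 17.1%, 29.1% and 24.6%), against 0% to 0.457% in iNKT17-like cells. Lat2 was seen in 0.455% and 0.676% of C57BL/6 and 10.4% and 10.1% of Hivep3-/- cycling-like cells (unthinned 2.79%, 4.05%, 40.9% and 38.6%), against 0% to 0.457% in iNKT17-like cells.

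Marker lists of other cell types were summed in the classes with the gaps. Some lists were near 0, others were not, and single members of a list differed widely. In cycling-like cells the mast cell and basophil list of 4 genes summed to 0 to 0.195 CPM with Ms4a2, Mcpt8 and Mcpt4 at 0, while the B cell list of 6 genes, 3 of them detected and Ms4a1 and Pax5 at 0, was low and higher in Hivep3-/- (1.12 and 0.436 against 4.64 and 2.15 CPM). The myeloid and dendritic list of 8 genes had 5 detected and summed to 122 to 139 CPM, of which Cst3 gave 120.2 to 135 CPM, while Spi1 was at 0 and Lyz2 at most 0.0620 CPM. The natural killer and innate lymphoid list of 5 genes summed to 200.2 to 294 CPM, of which Il7r gave 198 to 294 CPM, and Ncr1 and Eomes were at most 0.291 CPM. Il7r was higher in both Hivep3-/- libraries (212.9 and 198 against 294 and 278 CPM). The gamma delta list summed to 187 to 231 CPM, and the double positive thymocyte list of 6 genes to 20.9 and 9.30 CPM in C57BL/6 against 32.9 and 31.4 CPM.

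In iNKT1-like cells single natural killer markers stood apart by genotype in both directions. Eomes, a natural killer cell factor, stood at 0.0759 and 0 CPM in C57BL/6 and at 3.20 and 2.10 CPM in Hivep3-/-, and Ncr1 (NKp46) was higher too, at 0.607 and 0.971 against 11.8 and 12.2 CPM. The whole list of 5 genes, all detected, overlapped at 979 and 716 against 956 and 819 CPM, and Klra8 was lower in Hivep3-/- (6.53 and 6.23 against 2.55 and 3.66 CPM). The mast cell list was at 0. Higher in both Hivep3-/- libraries were the myeloid list, at 139 and 132 against 143 and 161 CPM with all 8 detected and nearly all of it Cst3, and the B cell list, at 1.67 and 1.05 against 3.25 and 6.91 CPM with 5 of 6 detected. The gamma delta list of 3 genes stood at 248 and 355 against 572 and 552 CPM. The double positive thymocyte list of 6 genes, of which 5 were detected and Rag2 was at 0, stood at 4.02 and 3.16 against 21.3 and 19.6 CPM. In stage 0-like cells the gamma delta list was lower in Hivep3-/- (13.7 and 35.2 against 1.98 and 4.65 CPM) and the double positive list overlapped (115 and 112 against 98.5 and 159 CPM). The part of these lists in the results was not tested.

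The pathway around the 7 genes was taken as 5 lists, 56 genes in all. Of 19 T cell proximal kinases and adaptors such as Lck, Lcp2 and Vav1, 0 were called by edgeR between genotypes in each class, and 1 to 5 had an unadjusted edgeR p under 0.05. DESeq2 called 1 in cycling-like (Rasgrp1) and 2 in iNKT1-like cells (Rasgrp1 and Sh2d1a), which are named for this after their values were seen. The median log2 difference of the list was -0.20 in iNKT1-like cells. Of the 4 TCR and CD3 chains, 1 was called in every class. This was Cd247, the zeta chain, which the study itself had singled out in these libraries. In iNKT2-like cells it stood at 360 and 290 CPM in C57BL/6 and 968 and 931 CPM in Hivep3-/- (1.46, SE 0.143, edgeR adjusted p = 0.00959). Its log2 differences in the other classes ran from 0.98 in iNKT1-like to 1.23 in iNKT17-like cells (edgeR adjusted p from 0.0162 to 0.0283), and the calls in stage 0-like, iNKT1-like and iNKT17-like cells were lost in 4, 2 and 1 of 10 alternatives (edgeR adjusted p up to 0.115, 0.165 and 0.0745).

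The B cell and myeloid relay, the list to which Lat2 and Syk would belong, had 5 of 9 genes above the filter in cycling-like cells. By edgeR 2 were called, Lyn and Plcg2, both higher in Hivep3-/-. All 5 had an unadjusted edgeR p under 0.05, with a median log2 difference of 2.45. DESeq2 called 3 (Lyn, Fgr and Plcg2), and Fgr is named here after its values were seen. Lyn and Plcg2 had 1 to 16 UMIs in a C57BL/6 library and passed the filter through the Hivep3-/- libraries, so their calls are no support. The counts say nothing of the list as a whole, and Syk, lower in Hivep3-/-, did not pass. Lyn, a Src family kinase, went from 0.991 and 0.436 CPM to 14.3 and 12.5 CPM (3.88, SE 0.383, edgeR adjusted p = 0.00531). Plcg2, the phospholipase that Syk activates in B cells, went from 0.496 and 0.145 CPM to 6.58 and 5.27 CPM (3.73, SE 0.508, edgeR adjusted p = 0.0162). The same 2 of 5 were called higher in iNKT1-like cells by edgeR and by DESeq2, and 3 had an unadjusted edgeR p under 0.05. There Plcg2 had 6 and 7 UMIs in the C57BL/6 libraries and again passed the filter through the Hivep3-/- libraries, so its call is no support. Lyn went from 6.30 and 5.75 CPM to 14.7 and 13.9 CPM (1.16, SE 0.187, edgeR adjusted p = 0.0446) and Plcg2 from 0.456 and 0.566 CPM to 4.46 and 3.59 CPM (2.88, SE 0.373, edgeR adjusted p = 0.0185). Lyn in iNKT1-like cells lost its call without any 1 of the 4 libraries (edgeR adjusted p up to 0.194). Plcg2 in iNKT1-like cells lost it without either C57BL/6 library or Hivep3-/- replicate 1 (up to 0.164 by edgeR), and in cycling-like cells without either Hivep3-/- library (up to 0.0829 by edgeR). In stage 0-like, iNKT2-like and iNKT17-like cells 0 of the 2, 3 and 1 genes above the filter were called by edgeR or DESeq2, and 0, 1 and 0 had an unadjusted edgeR p under 0.05.

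Of 13 negative regulators, Ubash3b, a phosphatase that acts on Zap70 and Syk, was the gene called. It stood at 11.2 and 9.13 CPM against 83.1 and 84.2 CPM in stage 0-like cells (2.87, SE 0.259, edgeR adjusted p = 0.000196). In cycling-like cells it stood at 36.2 and 31.0 CPM against 136 and 122 CPM (1.77, SE 0.146, edgeR adjusted p = 0.00299), and 0 of 13, 11 and 13 were called by edgeR or DESeq2 in iNKT2-like, iNKT17-like and iNKT1-like cells (4, 0 and 4 at an unadjusted edgeR p under 0.05). Of 11 receptors listed as partners of the adaptors, 8 passed the filter in iNKT1-like cells and edgeR called 2, both higher. DESeq2 also called Klrb1c (NK1.1, which uses Fcer1g), and it was lower in Hivep3-/- (413 and 462 against 319 and 305 CPM, log2 difference -0.57, SE 0.130, edgeR adjusted p = 0.136), named here after its values were seen. Ncr1, whose product NKp46 signals through Fcer1g and the zeta chain, went from 0.607 and 0.971 CPM to 11.8 and 12.2 CPM (3.84, SE 0.301, edgeR adjusted p = 0.00212). Cd244, the 2B4 receptor, was on the list, but these data do not show that it pairs with the adaptors. It went from 8.05 and 10.4 CPM to 42.4 and 39.98 CPM (2.07, SE 0.174, edgeR adjusted p = 0.00276). The calls of Ncr1 and Cd244 held in all 10 alternatives. In C57BL/6, Ncr1 had 3 and 8 UMIs in late and 5 and 4 UMIs in other iNKT1-like cells. It passed the filter through the Hivep3-/- libraries, so its call is no support. In late iNKT1-like cells Ncr1 stood at 1.87 and 6.36 against 35.2 and 36.1 CPM, and in the other iNKT1-like cells at 0.432 and 0.360 against 4.35 and 2.65 CPM. In the other 4 classes 0 of at most 3 receptors above the filter were called by edgeR or DESeq2 (3, 1, 1 and 0 at an unadjusted edgeR p under 0.05 in cycling-like, iNKT2-like, iNKT17-like and stage 0-like cells). The median log2 difference of the receptors above the filter was -1.19 in cycling-like, -0.38 in iNKT2-like and -0.01 in iNKT17-like cells, against 0.35 in iNKT1-like cells.

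**Figure D5:**
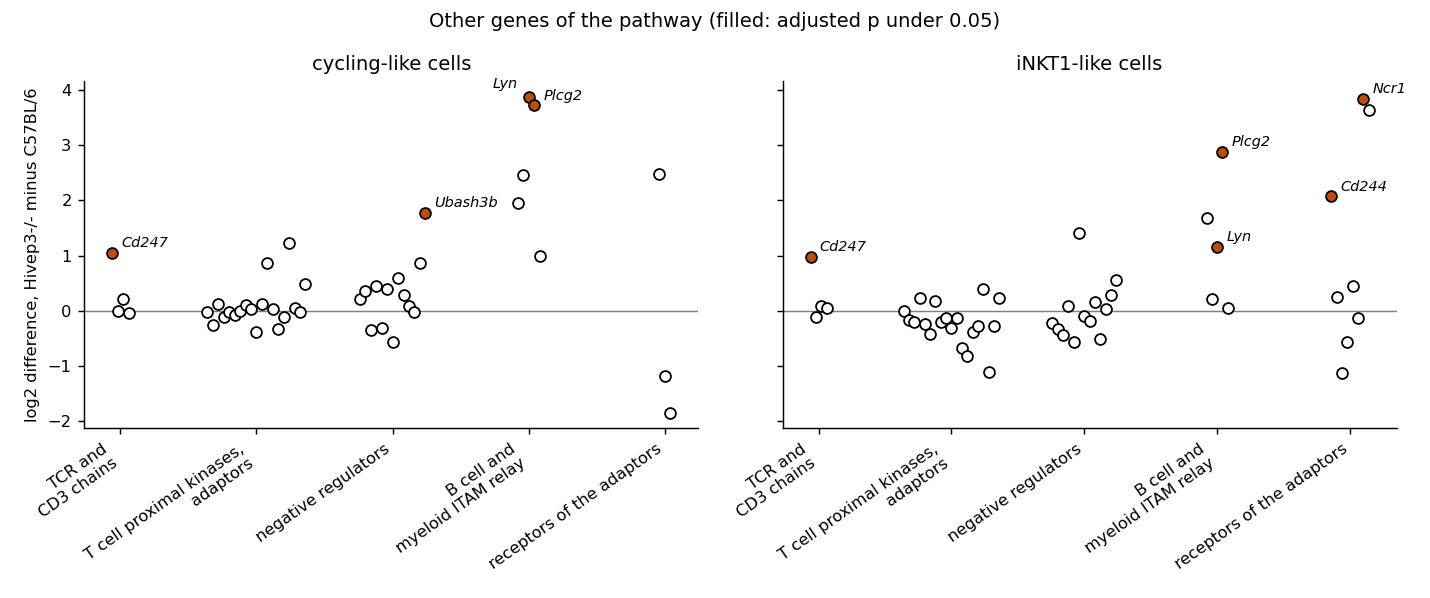
Log2 difference between genotypes (y axis, Hivep3-/- minus C57BL/6) of each gene above the count filter in 5 pathway lists (x axis), for cycling-like cells on the left and iNKT1-like cells on the right. Filled and named points were called at an adjusted p under 0.05. The called points are Cd247, Ubash3b, Lyn and Plcg2 on the left and Cd247, Lyn, Plcg2, Ncr1 and Cd244 on the right, all above 0.

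Between the classes of C57BL/6 the receptor list was also compared. From iNKT2-like to iNKT1-like cells of C57BL/6, 7 of the 7 receptors above the filter rose, where 43.6% of all genes were called in either direction. Most were nearly absent from iNKT2-like cells and passed the filter through iNKT1-like cells, so the count is no support. The rise was 5.45 for Klrk1 (NKG2D, which uses Hcst, 85 and 54 UMIs in iNKT2-like cells) and 4.31 for Klrb1c (179 and 122 UMIs). Of the 19 T cell kinases and adaptors, 8 rose and 3 fell from iNKT2-like to iNKT1-like cells, and Themis, a thymocyte selection adaptor, fell by 2.36.

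The genes most like Fcer1g over the 20 sums, out of 5302 genes whose mean reached 20 CPM, were Itgb1 (Pearson r 0.90), Litaf (0.89), Bin2 (0.87), Hvcn1 (0.85) and Il2rb (0.83). Those most like Lat2 were Bid (0.89), Ehd4 (0.88), Klhdc2 (0.86), Atp1b1 (0.82) and Litaf (0.81). The 20 points share 4 libraries, so these values only describe the profiles. Il2rb, the interleukin 2 receptor beta chain, shows the likeness in cycling-like cells, with 131 and 120.3 CPM in C57BL/6 and 479 and 361 CPM in Hivep3-/-. It parts from Fcer1g in iNKT1-like cells, where it stood at 666 and 739 CPM against 651 and 599 CPM.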

How the data were processed

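Thymic iNKT cells of 2 C57BL/6 and 2 Hivep3-/- mice were profiled with droplet 5' chemistry (10x Genomics), 1 library per mouse. The deposited values are raw UMI counts for each gene in each barcode. According to the submitters' processing notes, the authors used Cell Ranger 3.1.0, Seurat 3.1.4 and mm10. Groups and replicate numbers came from the labels. Cells with at least 500 and under 4100 genes, at least 1000 UMIs and under 6% mitochondrial UMIs were kept. Scrublet marked 0 to 5 cells per library, so it did not work here, and removal of the 5% highest scores served as an alternative. Counts were normalized, corrected between libraries by mutual nearest neighbours and clustered (Louvain, resolution 0.8) with R 4.3.3 and Seurat 5.3.0, on 2000 variable genes without the members, the pathway lists, 26 genes the study named, Hivep3 and sex-linked genes. The rule for naming clusters from markers was set after the clusters were seen.

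UMI counts were summed per library and class and tested with edgeR 4.0.16 (filterByExpr, TMM, quasi-likelihood test, Benjamini-Hochberg over all genes tested, called at an adjusted p under 0.05). Printed levels are CPM without TMM. In the genotype fits, where TMM was run within each class, its factors ran from 0.938 to 1.08. The joint fit of all classes, used for the class differences, had its own factors, which are not reported here. The range above therefore does not limit how far normalization moved the class differences. Sums held 766531 to 21534360 UMIs, and rare genes carry more counting error in the smaller ones. With 2 libraries a group, p-values rest on the spread between mice. The genotype fit of stage 0-like cells was checked on simulated data, and the joint fit of all classes was not. Alternatives were DESeq2 1.42.0, no count filter, each library left out, resolution 1.2, no correction, doublet removal, a replicate block and, added after seeing the data, single clusters and a stage 0-like class without cluster 11. Named pathway genes are those called, at most 5 per class by p, and likeness used log2(CPM + 1). The members and lists were chosen with earlier results of these data known, and Fcer1g for its genotype values. Single values of some listed genes are not reported here.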

Additional observations from a re-analysis of the deposited data

Results flagged for a closer look

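The genotype difference of Fcer1g pointed in opposite ways in different classes, with both Hivep3-/- libraries on 1 side of both C57BL/6 libraries each time. The log2 difference was -1.14 in stage 0-like cells, against 3.76 in cycling-like cells, 1.05 in iNKT17-like cells and 0.98 in iNKT1-like cells. The difference between classes was not tested, since this contrast chose the gene. Without C57BL/6 replicate 1 the stage 0-like value was -0.55. The thinned shares of stage 0-like cells with Fcer1g overlapped (13.9% and 3.70% in C57BL/6 against 4.36% and 5.04%), and in cluster 9 of C57BL/6 replicate 2, 5 cells held 90.2% of 61 UMIs. The iNKT17-like class has the lowest Fcer1g level, at 8 to 37 UMIs a library, and its value ran from 0.35 without Hivep3-/- replicate 2 to 1.64 without C57BL/6 replicate 1. Groups of 2 libraries are too small for a search for single libraries that stand apart.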

How the results depend on the processing

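With 2 libraries a group the counts of called genes move widely, and of the 26 genotype differences of the 7 genes 9 changed sign in an alternative. For genotype, cycling-like, iNKT1-like, iNKT2-like, iNKT17-like and stage 0-like cells had 307, 88, 28, 8 and 68 calls. Without the count filter they had 1090, 567, 348, 94 and 220, and with the replicate block 604, 147, 58, 48 and 166. The replicate number is only a name here: same-numbered libraries deviated together with correlations of 0.0916 to 0.179 over genes, from 2 pairs, and of the 7 genes only Fcer1g in stage 0-like and iNKT1-like cells gained a call in the paired fit. DESeq2 called 200 genes in iNKT1-like (119 higher and 81 lower, where edgeR had 63 and 25), 65 in iNKT2-like, 5 in iNKT17-like (4 higher and 1 lower, where edgeR had 5 and 3) and 39 in stage 0-like cells. Without correction between libraries iNKT17-like cells had 5 calls, and with the highest doublet scores removed iNKT17-like and stage 0-like cells had 2 and 36. Leaving out 1 library at a time gave 147 to 285 calls in cycling-like, 28 to 132 in iNKT1-like, 45 to 222 in iNKT2-like, 17 to 78 in iNKT17-like and 42 to 92 in stage 0-like cells. In the class tests it gave 2328 to 5079 calls for iNKT1-like over iNKT2-like (4791 with all libraries), 3311 to 5460 over stage 0-like (5415) and 970 to 1949 for iNKT17-like over iNKT2-like cells (1931), and the lowest of each came without C57BL/6 replicate 1. The causes of these shifts were not tested.

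Fcer1g and Lat2 in cycling-like cells and Tyrobp in iNKT1-like cells were called in all 10 alternatives. These alternatives reuse the libraries that chose the genes, so the repeated calls are no support. Over alternatives and single clusters the log2 difference of Fcer1g ran from 1.98 to 4.94 in cycling-like, 0.39 to 1.2 in iNKT1-like and -1.90 to -0.55 in stage 0-like cells. Tyrobp turned to -0.029 in cluster 2 alone. The other 8 genotype differences that changed sign were Fcer1g in iNKT2-like cells (down to -0.12), Hcst in cycling-like (up to 0.26), iNKT2-like and iNKT1-like cells, Lat in iNKT17-like and iNKT1-like cells, and Zap70 in cycling-like (-0.37 to 0.18) and iNKT1-like cells. Class differences that changed sign were, for Lat in iNKT1-like over stage 0-like cells, 0.00578 without C57BL/6 replicate 2 (-0.16 without replicate 1), and, for Zap70 in iNKT1-like over iNKT2-like cells, 0.00408 at resolution 1.2 and 0.00215 without C57BL/6 replicate 1. For iNKT17-like over iNKT2-like cells, Fcer1g turned to 0.13 without C57BL/6 replicate 2 (-1.94 without replicate 1, and called in 3 of 9 alternatives) and Tyrobp to -3.11 with doublet scores removed. Hcst turned there to -0.016 without the filter, -0.060 with doublet scores removed, -0.12 without C57BL/6 replicate 1 (0.11 without replicate 2) and -0.00329 without Hivep3-/- replicate 2. Syk had at most 42 UMIs a library in a class, and Tyrobp at most 8 in the 4 named classes other than iNKT1-like, so small differences were not detectable at this depth. Without cluster 11 in the stage 0-like class, 86 genes were called by genotype and 5212 in iNKT1-like over stage 0-like cells.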
